A study of Vitis vinifera with 3 samples.

Results

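The berry colour locus of grapevine is a stretch of chromosome 2 that holds the MYBA genes. It was taken here as all listed regions with a midpoint from 13700001 to 14700000 on that chromosome, in 9 tables of differentially methylated regions. This window held 1071 of the 377997 regions in the tables, or 6.42% of those on chromosome 2, in 5.33% of the chromosome's listed length. The libraries came from berries of Vitis vinifera cultivar Fujiminori, with 1 bisulfite library for each of 3 stages. These were first growth (40 days after flowering), véraison (65 days), when ripening begins, and the mature stage (90 days). No treatment, transgene or mutant is given in the labels, and no part of the fruit, such as skin, is named for the DNA; a pool of 20 berries from 10 bunches is described for RNA. With 1 library per stage there is no test between stages, so every difference below describes these 3 libraries. Levels are the average share of methylated cytosines in a region, in percent, and differences are the later stage minus the earlier one. The depth behind the levels is unknown, also for the 59 regions with a level of 0% or 100% in a library. A listed region is one the authors called as differing, and where none is listed the level is not known.

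MYBA genes encode MYB transcription factors that switch on UFGT, the gene for the glucosyltransferase that makes stable anthocyanins in berry skin. Berries of coloured cultivars begin to accumulate these pigments at véraison, and white cultivars carry inactive copies of the locus, including one with a retrotransposon in the MYBA1 promoter. In plants, methylation stands in the CG, CHG and CHH contexts, where H is A, C or T. In Arabidopsis, CG methylation is copied by MET1 and CHG methylation is kept by CMT3, whereas CHH methylation is set anew by the RNA-directed pathway and by CMT2, mostly in transposons.

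Of the gene models from VIT_02s0033g00390 to g00450, the identifiers given for the MYBA genes, 0 overlapped a listed region in any of the 9 tables. Only 13 gene models of the whole window overlapped one, and how many models the window holds is not given. The 0 therefore does not set the MYBA genes apart from other models. Whether reads covered these genes is unknown. Identifiers of this series rose with coordinate in all 55 models that were listed on chromosome 2. The MYBA identifiers therefore fall between the nearest listed models on either side, VIT_02s0033g00360.t01, which ends at 14154016, and VIT_02s0033g00520.t01, which starts at 14558378. This interval of 404.4 kb, from 14154017 to 14558377, is called the MYBA interval below. It was set after the values were seen. The files give no positions for the MYBA genes themselves, so distances to them were not computed. The reference gene list of assembly ASM3070453v1 has 1 gene on chromosome 2 with MYBA among its synonyms, LOC100853472, but its identifiers matched 0 of the 9490 gene models in the tables.

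CHG regions were denser at the colour locus than on the rest of chromosome 2 in each pair of stages. There were 27 CHG regions for véraison against first growth, 27 when maturity was set against véraison, and 38 when it was set against first growth. The rest of the chromosome had 17.4, 14.3 and 18.7 per Mb, which gave density ratios of 1.55 (exact 95% interval 1.01 to 2.30), 1.89 (1.22 to 2.81) and 2.03 (1.41 to 2.85). Each interval covers counting error only, and it treats neighbouring regions as independent, which they are not. Among 18 windows of 1 Mb laid along the chromosome from this one, the locus had the most CHG regions in every pair, where the highest of the others had 23, 24 and 30. The window just before it held that 30, for maturity against first growth.

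The CHG excess depended on where the window was drawn. In a window of 2 Mb with the same centre, the ratio for véraison against first growth was 1.01, and in the middle 500 kb the ratio for maturity against véraison was 0.934. The MYBA interval had 17.3, 9.89 and 44.5 CHG regions per Mb in the same order of pairs. Before it there were 37.4, 37.4 and 41.8 per Mb, and after it 21.2, 42.4 and 7.06, from 3, 6 and 1 regions. In the interval the density was thus above that of the rest of the chromosome only for maturity against first growth. With regions of 1 direction within 100 bp joined to 1 place, the locus had 26, 23 and 34 CHG places and ranked 1, 2 and 1 of the 18 windows. All 3 pairs draw on the same 3 libraries, so they are not separate evidence.

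CG regions were no denser than elsewhere, and CHH regions were slightly denser. The window held 10, 5 and 8 CG regions in the same order of pairs, with density ratios of 1.03 (exact interval 0.484 to 1.94), 0.916 (0.291 to 2.21) and 0.718 (0.306 to 1.44). It held 490, 67 and 399 CHH regions, with ratios of 1.20 (1.09 to 1.31), 1.23 (0.947 to 1.58) and 1.18 (1.06 to 1.31). By number of CHH regions the locus ranked 6, 5 and 6 of 18 windows, and with short regions left out (under the median length of their table) the CHH ratios against first growth were 1.05 and 1.03. All listed regions together covered 7.01% of the window and 5.98% of the rest of the chromosome.

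**Figure D1:**
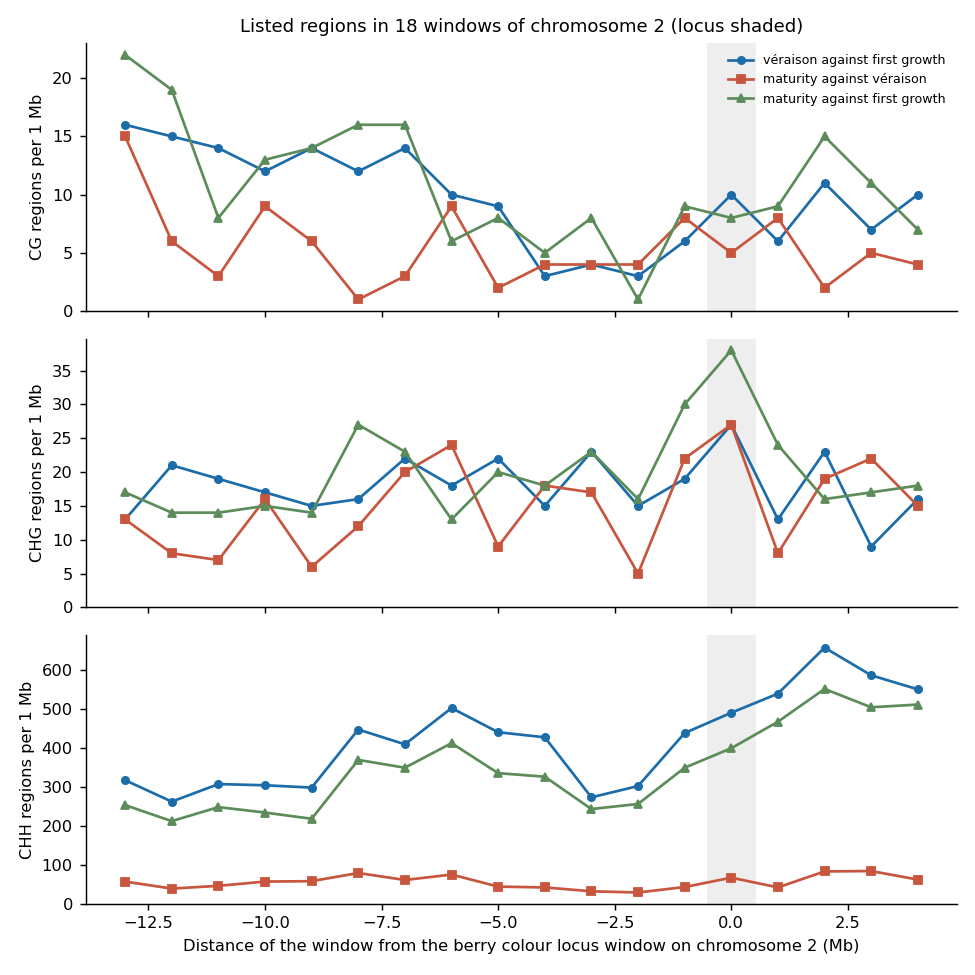
Number of listed regions (y axis) in 18 windows of 1 Mb, placed by their distance in Mb from the colour locus window (x axis, locus shaded), by context and pair of stages. CHG counts peak at the locus with 27, 27 and 38, whereas CHH counts for the pairs against first growth are higher in each of the 4 windows after it, up to 657.

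Directions at the locus were read against those of all listed regions. Of 490 CHH regions for véraison against first growth, 489 were higher at véraison (99.8%), where 99.6% of all CHH regions in that table were higher and 0.361% lower. For maturity against first growth 397 of 399 were higher, against 99.4% of all, and 2 were lower, against 0.579% of all. For maturity against véraison 27 of 67 were higher (40.3%, interval 28.5 to 53.0%), against 31.2% of all and 32.0% on the rest of chromosome 2. The other 40 were lower, against 68.8% of all. These CHH shares were near the background of their tables.

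Median CHH levels at the locus were 5% at first growth and 19% at véraison, and 5% and 18% in the table of maturity against first growth. On the rest of the chromosome the medians were 5% and 21%, and 6% and 21%. The median CHH gain was 14 percentage points in both tables (quartiles 10 and 20, and 10 and 20.5), compared with 15 elsewhere on the chromosome. Of the locus's CHH regions, 25.9% differed by at least 20 percentage points for véraison against first growth, where 34.5% of the rest of chromosome 2 and 33.6% of all CHH regions did. For maturity against véraison 39 of 67 differed by that much (58.2%), where 55.9% of all CHH regions did. Between véraison and maturity, the 40 lower CHH regions had medians of 31% and 8%, and the 27 higher ones had 6% and 30%.

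CG regions were mostly lower after first growth. For véraison against first growth 8 of 10 were lower, where 81.2% of all CG regions were, and for maturity against first growth 7 of 8 were lower, where 79.3% were. Median CG levels were 41.5% in the first growth library and 19.5% at véraison, and 44.5% and 23% in the table of maturity against first growth. Starting levels were above those of the rest of the chromosome, where the medians at first growth were 30% and 33%. Between véraison and maturity 4 of 5 CG regions were higher at maturity, where 53.1% of all CG regions were, and 1 was lower, where 46.9% were.

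CHG regions went both ways, and among all listed CHG regions 59.6%, 50.3% and 60.3% were lower in the later library for the 3 pairs in the order above. At véraison 14 of 27 were higher than at first growth (51.9%, exact interval 31.9 to 71.3%), where 40.5% of all CHG regions were. At maturity 13 of 27 were higher than at véraison, where 49.7% of all were, and 21 of 38 were higher than at first growth (55.3%, interval 38.3 to 71.4%), where 39.7% of all and 42.5% on the rest of the chromosome were. In that last pair the windows of 1 Mb just before and just after the locus had 56.7% and 75% higher. A share above the background was thus not particular to the locus. The median CHG difference was 11.5 percentage points for maturity against first growth and, among regions of at least the median length, -15. Higher CHG regions of that table had medians of 19% at first growth and 39% at maturity, and lower ones had 39% and 15%.

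The balance of CHG gains and losses at maturity against first growth differed between stretches of the window, with both in each. In the MYBA interval 15 of 18 CHG regions were higher at maturity than at first growth (83.3%, exact interval 58.6 to 96.4%), with a median change of 24 percentage points. Before the interval, from the window start to the end of VIT_02s0033g00360.t01, 5 of 19 were higher (26.3%, interval 9.15 to 51.2%), with a median change of -16. Of these 19, 12 overlapped gene models (63.2%), 8 of them VIT_02s0033g00190.t01, whereas the interval by its definition holds no region in a gene model. This difference was not allowed for. With neighbouring regions joined, the counts were 12 of 15 and 4 of 18. Among regions of at least the median length they were 5 of 8 and 4 of 16. The boundary was chosen after these values were seen, and no test was made of it. Of the windows of 1 Mb beside the locus, the one before had 56.7% higher and the one after 75%.

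Between véraison and maturity, 12 of 17 CHG regions before the interval were lower at maturity. In the interval 3 of 4 were higher, and after it 5 of 6. Those 5 are not separate places: the entries starting at 14616746 and 14617036 overlap, as do 3 from 14626969 to 14627188. Of all CHG regions in this pair 49.7% were higher and 50.3% lower. At véraison against first growth the split was not seen, with 9 of 17 higher before the interval and 4 of 7 in it.

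**Figure D2:**
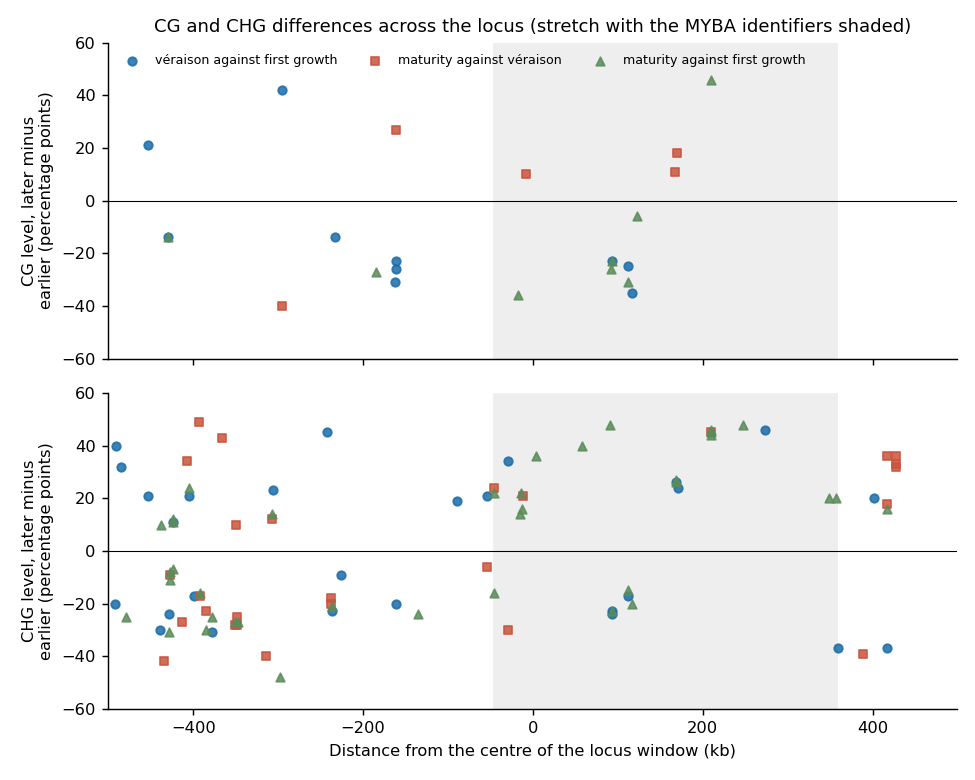
Difference in CG (top) and CHG (bottom) level, later minus earlier library, in percentage points (y axis) for each region of the locus, by distance in kb from the window's centre (x axis); the MYBA interval is shaded. Green triangles, maturity against first growth, lie mostly above 0 for CHG in the shaded interval (15 of 18) and mostly below 0 before it (14 of 19).

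The 15 CHG gains at maturity in the MYBA interval were of 14 to 48 percentage points and began from levels of 0% to 45%. From 14447627 to 14447705 the CHG level went from 45% at first growth to 93% at maturity, and from 14290473 to 14290518 it was 44% and 92%. From 14257276 to 14257456 it was 39% and 79%, and from 14203548 to 14203702 it was 34% and 70%. The last of these overlapped 3 CHH regions that were also higher at maturity, at 23%, 25% and 35%, against 6%, 4% and 10% at first growth. Gains from lower levels included those from 14154640 to 14154870, at 14% and 36%, from 14186360 to 14186490, at 13% and 35%, and from 14549132 to 14549323, at 14% and 34%. At the far end of the interval, from 14556688 to 14557060, the CHG level went from 19% to 39%, over 4 CHH regions that were higher at maturity, at between 8% and 19%.

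One place gained CG and CHG methylation together at maturity. From 14409472 to 14409847 the CG level went from 44% at first growth to 90% at maturity. The authors' deposited table gives it p = 3.41894e-10, the smallest of the window's CG regions in that pair. It overlapped 3 CHG entries of the same pair that went from 42% to 87%, 41% to 85% and 24% to 70%. From 14409501 to 14409671 the CHG level went from 36% at véraison to 81% at maturity, and no CG or CHG region was listed there for véraison against first growth. CHH levels next to it were higher in both later libraries: from 14409049 to 14409214, 257 bp away, it went from 11% at first growth to 42% at maturity, and from 14409044 to 14409293 it went from 10% to 31% at véraison.

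Earlier in the interval, CG and CHG were lower together in both later libraries. From 14292316 to 14292898 the CG level went from 50% at first growth to 24% at maturity, and from 14292585 to 14292898 it went from 41% to 18% at véraison. CHG levels over the same bases were 39% and 16% from 14292635 to 14292933 at maturity, and 43% and 19% from 14292640 to 14292931 at véraison. A second such place lay from 14311543 to 14312147, where CG methylation went from 58% at first growth to 27% at maturity. The CHG level there, from 14311735 to 14311985, was 19% and 4%. After it, from 14316622 to 14317172, lay the lower CG region with the least p for véraison against first growth, at 64% and 29% (p = 2.67952e-08, the authors' deposited table).

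Overlap between CG and CHG regions was common at the locus in the pairs against first growth, but not for maturity against véraison. For véraison against first growth, a CHG region of the same pair overlapped 6 of 10 CG regions (60%, or 22.2% of the CHG regions), and all 7 overlapping pairs had the same direction. On the rest of the chromosome 11.0% of CG regions did so (6.15% of the CHG regions), with 20 of 20 pairs in the same direction. For maturity against first growth 4 of 8 CG regions overlapped one, with 6 of 6 pairs in the same direction, against 9.09% elsewhere. For maturity against véraison 0 of 5 did, against 25.8% elsewhere. With only the larger differences kept (at or above the median size in their table) the first share was 12.5%, from 1 of 8 regions. Entries that overlap each other were counted apart, as 2 of the 10 CG and 2 of the 27 CHG regions at véraison did. For maturity against first growth, 3 of the 6 pairs were of the CG region from 14409472 to 14409847.

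In the pairs against first growth, CHH gains lay within 500 bp of many CG losses at the locus. They also lay that near some CG gains and some CHG regions of either direction. For véraison against first growth, 6 of 8 lower CG regions had a higher CHH region of the same pair within 500 bp (75%, exact interval 34.9 to 96.8%), compared with 45 of 141 on the rest of the chromosome (31.9%, interval 24.3 to 40.3%). For maturity against first growth the counts were 5 of 7 and 49 of 163 (30.1%). Higher CHG regions of that pair had a CHH gain as near in 10 of 21 cases (47.6%, interval 25.7 to 70.2%; rest of the chromosome 24.8%), and lower ones in 3 of 17 (17.6%; rest 16.8%). Among the 10, overlapping CHG entries from 14409450 to 14409798 were counted apart although they share 1 CHH gain. For véraison against first growth the order was reversed. There, 3 of 14 higher CHG regions (21.4%, rest 18.2%) and 5 of 13 lower ones (38.5%, rest 16.3%) had a CHH gain as near. For higher CG regions it was 1 of 2 at véraison and 1 of 1 at maturity, both against first growth. The distance was chosen after the values were seen, some of these CG and CHG regions overlap others of their own context, and the intervals for the locus are wide. Against first growth, 99.6% and 99.4% of all CHH regions were higher. A CHH gain nearby therefore says little more than that a CHH region is nearby. At the locus 10% and 0% of the CG regions of these pairs overlapped gene models, where 34.1% and 30.3% on the rest of the chromosome did. Most CHH regions lay outside gene models, and this difference was not allowed for. From 14311281 to 14311535, 200 bp before the lower CG region from 14311736 to 14312147, the CHH level went from 38% at first growth to 80% at véraison. Around the other CG and CHG losses, 32 CHH regions from 14289998 to 14306986 were all higher at véraison, where 99.6% of all were. Their medians were 11% at first growth and 32% at véraison. In the table of maturity against first growth the same stretch held 23 CHH regions, all higher, where 99.4% of all were. The medians of these were 8% and 35%. The stretch also holds a CHG gain, from 14290473 to 14290518, at 44% at first growth and 92% at maturity. It had 5 CHH gains of that pair within 500 bp, compared with 2 for each lower CG or CHG region of that pair there. Between véraison and maturity 7 CHH regions were listed there, of which 6 were lower at maturity, with medians of 33% and 18% over the 7.

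A like arrangement lay before the MYBA interval. There, 3 CG regions from 14037549 to 14038587 were lower at véraison, at 17%, 19% and 27% against 48%, 42% and 53% at first growth. The CHH level from 14037423 to 14037557, which overlaps the first of them, went from 20% to 59%, and from 14038796 to 14038899 it went from 18% to 61%. At maturity the CHH level from 14038797 to 14038906 was 57%, whereas the CG level from 14038431 to 14038587 was back at 54%.

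CHH regions were unevenly spread within the window. Per 50 kb there were 2 to 54 CHH regions for véraison against first growth, with a median of 22.5. The most lay from 14350001 to 14400000, in the MYBA interval, and the same bin held the most for the other pairs, 10 and 44. It held the CHH region with the smallest p of the window, from 14385979 to 14386331, at 3% at first growth and 28% at véraison (p = 2.17575e-71 in the authors' deposited table). At maturity the CHH level from 14386192 to 14386412 was 31%, against 5% at first growth.

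Fewest regions lay from 14500001 to 14550000. No region of any context or pair was listed from 14494756 to 14549131, a stretch of 54.4 kb, whereas the next longest such stretch in the window was 13.9 kb. Whether reads covered it is unknown. In the MYBA interval as a whole, CHH density was 532 per Mb for véraison against first growth, compared with 410 before it and 628 after it, and the median gain was 16 percentage points, compared with 13 and 12. All 215 CHH regions of the interval were higher at véraison, as were 99.6% of all CHH regions in that pair.

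**Figure D3:**
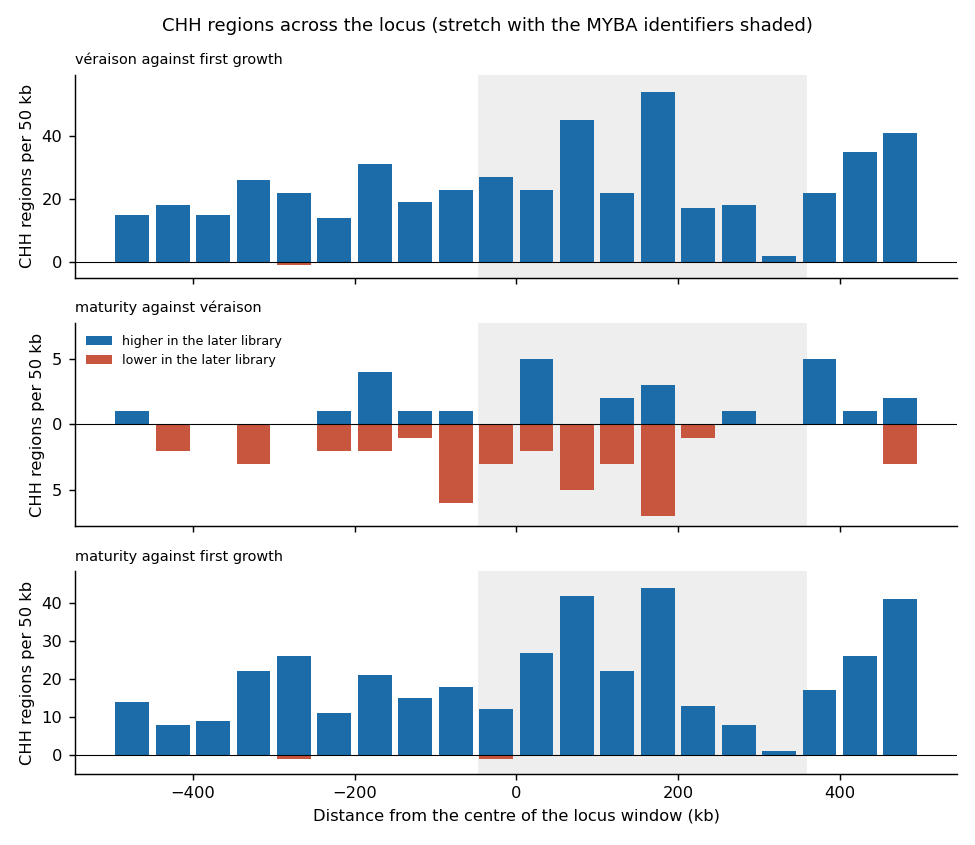
Number of CHH regions in each 50 kb bin (y axis; bars above 0 are higher and bars below 0 lower in the later library) by distance in kb from the centre of the locus window (x axis), with the MYBA interval shaded. The bin with the most holds 54, 10 and 44 regions in the top, middle and bottom panels, and the bin with 2 and 1 regions lies near the end of the shaded interval.

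The 4 largest CHH gains of the window lay after the MYBA interval. From 14648358 to 14648416 the CHH level went from 3% at first growth to 70% at véraison, and from 14648369 to 14648415 it was 4% at first growth and 33% at maturity. From 14577784 to 14578023 it was 27% and 82% at véraison, and from 14577865 to 14577938 it was 14% at first growth and 60% at maturity. CHH levels about 1 kb further on, from 14578987 to 14579028, were 16% at véraison and 58% at maturity. From 14676214 to 14676263 it went from 0% to 51% between first growth and maturity.

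Some places had their highest level at véraison. From 14674525 to 14674598 CHH methylation stood at 0%, 50% and 4% at first growth, véraison and maturity. In the MYBA interval, from 14187660 to 14187720, it was 25% at first growth and 60% at véraison, and from 14187662 to 14187713 it was 65% at véraison and 27% at maturity. The 9 CHH regions from 14187660 to 14189652 were all higher at véraison, where 99.6% of all CHH regions were, with medians of 24% and 57%. In this stretch 2 CHH regions, up to 14187773, were lower at maturity than at véraison, whereas the level from 14187773 to 14187835 was 17% at first growth and still 54% at maturity. The CHG level from 14170562 to 14170695 went from 18% to 52% at véraison, and from 14170562 to 14170665 it went from 59% to 29% by maturity. The CG level from 13904448 to 13904572 went from 37% to 79% at véraison, and from 13904448 to 13904540 it was 76% at véraison and 36% at maturity. The bounds of these entries differ slightly between tables, so their véraison levels differ too.

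The opposite course, low at véraison, was seen in CG and CHG. From 14616746 to 14617152 the CHG levels of the 3 stages, in order of time, were 53%, 16% and 52%. Its p-values were the smallest of the window's CHG regions in both tables, 4.45397e-18 and 6.87303e-17 in the authors' deposited table. It lies between the listed models VIT_02s0033g00530.t01, on the plus strand up to 14616258, and VIT_02s0033g00540.t01, on the minus strand from 14617300. The CG level from 14038431 to 14038587 was 53%, 27% and 54% in the 3 libraries.

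Few regions were listed with the same bounds in more than 1 pair of stages, which is where all 3 libraries can be compared over the same bases. There were 13, of which 10 were CHH, 2 CHG and 1 CG. In 7 CHH regions listed in both tables against first growth, the stages had medians of 3%, 13% and 11% in order of time, and all 7 differed by at most 5 percentage points between the later libraries. Being listed in both tables favours such likeness. The CHH region from 14217400 to 14217478 took another course, with 3%, 5% and 30%. A CHG region from 13794911 to 13795107 had 21%, 42% and 45%.

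**Figure D4:**
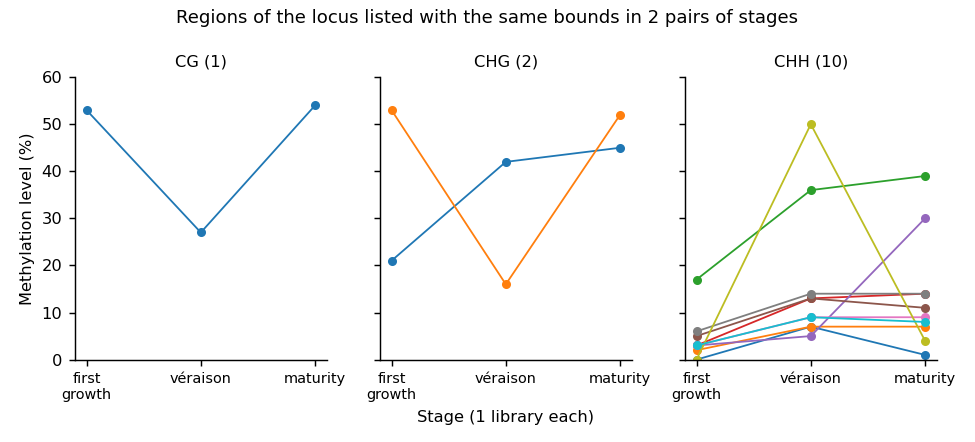
Methylation level in percent (y axis) in the 3 libraries (x axis) for the 13 regions of the locus listed with identical bounds in 2 pairs of stages; each line is a region. The CG region and a CHG region dip to 27% and 16% at véraison, and a CHH region peaks there at 50%.

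CHH losses after first growth were rare at the locus and lay in 2 places. From 13942238 to 13942292 the CHH level went from 13% at first growth to 1% at véraison, and next to it, from 13942189 to 13942234, it was 13% and 1% at maturity. From 14155282 to 14155342, just inside the MYBA interval, it went from 20% at first growth to 1% at maturity (p = 1.7104e-09, the authors' deposited table). Beside it, a CHG region that lies before it in the interval, from 14154640 to 14154870, went from 14% to 36% at maturity, and VIT_02s0033g00360.t01 next to it held a CHG region that went from 16% to 0%.

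Most regions of the locus lay outside gene models. In all, 72 of the 1071 overlapped 1 of 13 listed models, and 999 overlapped none. For CHH the share in models was 5.31% for véraison against first growth (exact interval 3.50 to 7.68%), compared with 8.54% on the rest of the chromosome, and 3.51% for maturity against first growth (1.93 to 5.82%), compared with 8.39%. For CHG it was 22.2%, 29.6% and 34.2% in the order of pairs above, compared with 39.8%, 37.8% and 34.9%. The MYBA interval held no region in a gene model, as its definition requires. The symbols and functions of the 13 models are not given in the files.

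VIT_02s0033g00190.t01, a model of 49447 bp on the minus strand from 13772201 to 13821647, held 40 of the 72. Of these 17 were CHG and 23 CHH, and 22 of the 23 CHH regions were higher in the later library, by 5 to 20 percentage points. These 22 were of the pairs against first growth, where 99.6% and 99.4% of all CHH regions were higher. The model's CHG regions went both ways, from -30 to 24 points for maturity against first growth. Neighbouring regions near one end differed in direction: from 13776187 to 13776673 the CHG level went from 12% at first growth to 5% at maturity, and from 13776675 to 13776914 it went from 9% to 21%. Nearer that edge, regions starting at 13772209 and 13772648 went from 13% to 5% and from 20% to 9%. Towards the other end, from 13815197 to 13815512, it went from 55% to 25%. A short CHG region from 13806808 to 13806859 went from 37% at véraison to 86% at maturity.

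The model next in number, VIT_02s0033g00530.t01, held 7 CHH entries near its start, all higher in the later library. Their gains were small, from 4 to 8 percentage points, with levels of 3% to 5% at first growth and 7% to 12% later. Nearly all CHH regions of the pairs against first growth were higher. VIT_02s0033g00160.t01 was listed in all 3 contexts, all higher at véraison: the CG level went from 20% to 41%, the CHG level from 17% to 38%, and 2 CHH regions had medians of 1.5% and 11%. A last CHH region was 2% at first growth and 8% at maturity. In VIT_02s0033g00230.t01 3 CHG regions were all higher in the later library, by 12 to 23 percentage points. In VIT_02s0033g00520.t01, the first listed model after the MYBA identifiers, the CHG level from 14559113 to 14559385 was 72% at first growth and 35% at véraison.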

How the data were processed

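Per the labels' protocols, berry DNA was sheared, ligated to adaptors, treated with bisulfite, which leaves methylated cytosines unchanged, and sequenced from both ends. The submitters' processing notes name BSMAP 2.73, an aligner. Not given in the sources used here are how regions were called and filtered, which build and annotation were used, and whether starts count from 0 or 1. Levels were deposited by the authors as fractions averaged over each region, per the file headers, and were turned into percent here. The authors' deposited p-values, which their note calls a chi-square statistic, are all at or below 0.00999823 and were read as unadjusted p-values. The tables hold no read counts, so the precision of a level is unknown, and only regions called as differing are listed.

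The members and the lists were chosen with earlier results of these data known. Regions were assigned by midpoint, densities used 17.77 Mb for the rest of chromosome 2 (up to 18773543, the last listed end), and overlap meant at least 1 bp. Shares and density ratios have exact Clopper-Pearson 95% intervals (scipy 1.17.1), which cover counting error only. Functions were checked on simulated data. The design had no test between stages, so none was run. The rule for named regions took the 3 largest rises and falls per pair and context, the models with most regions, models listed in all contexts, regions with equal bounds in several pairs and overlaps between contexts. Others named, including runs of CHH regions, neighbours of those regions and smallest p-values, were picked with their values in view. The rule's part for regions in or near the MYBA models could not be applied, since none is listed. Sequences were not analysed here. Alternatives changed the window, the filters on difference, p and length, the reference chromosomes, the joining of neighbours and, for medians, the scale (log2 ratio).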

Additional observations from a re-analysis of the deposited data

How the results depend on the processing

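Density ratios, medians and the shares of higher regions and of regions in gene models were recomputed under the filters, windows, references and joining. Overlap shares were recomputed under a stricter overlap, the difference filter and the length filter only. Medians were also taken as log2 ratios with a pseudocount of 0.01, which were compared by sign only. With those of the MYBA interval this made 314 values. Of these, 266 stayed within the main value's interval or spread or, as log2 ratios, kept its sign. Another 43 moved beyond it, and 5 changed sign. No paired analysis was possible because each stage has 1 library. The median difference changed sign for CG at maturity against véraison (-6.5 percentage points with only differences at or above the median size), for CHG at véraison against first growth (-17 among regions of at least the median length), at maturity against véraison (0.5 with the difference filter, 19.5 with p at or under 0.1 of the largest) and at maturity against first growth (-15 with the length filter). The density ratio moved with the 2 Mb window to 1.01 for CHG at véraison against first growth and 0.898 for CHH at maturity against véraison. In the middle 500 kb it was 0.934 for CHG at maturity against véraison, and for CHH 1.34, 1.82 and 1.34 in the order of pairs used above. CHH ratios against first growth were 1.08 and 1.02 with the difference filter and 1.05 and 1.03 with the length filter. The share of higher CG regions at véraison was 0% with the length filter and in the middle 500 kb, and at maturity against véraison it was 100% with the p filter, the length filter and the middle 500 kb. That of CHH at véraison was 100% under the difference and length filters and the middle 500 kb. Median differences with the difference filter were 24 and 26.5 for CHG and 21 and 22 for CHH against first growth, and -21.5 for CHH at maturity against véraison. In the middle 500 kb they were 22 for CHG at maturity and 16 for CHH at véraison, both against first growth, and the last was 17 with the length filter. Shares in gene models in the middle 500 kb were 0% for CG at véraison, 0%, 0% and 10.5% for CHG, and 2.18% and 0.442% for CHH against first growth. With the difference filter they were 7.69% and 12.5% for CHG and 1.30% and 0% for CHH against first growth, with the 2 Mb window 8.07% and 6.84% for CHH, and with the length filter 0% for CG at véraison. CG regions overlapping CHG regions at véraison made up 12.5% with the difference filter and 20% with the length filter. In the MYBA interval the share of higher CHG regions at maturity was 100% (9 of 9) with the difference filter and 62.5% (5 of 8) with the length filter, and before it 0% (0 of 7) with the difference filter; these settings were added after the data were seen. The cause of these moves was not tested. Without read counts, what depth limits is unknown.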

Other observations

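Some CHH regions higher at maturity than at véraison lay close together at the locus. From 14018376 to 14018583, before the MYBA interval, 3 of them went from a median of 14% to one of 53%, and 3 CHH regions of the table of maturity against first growth, from 14018325 to 14018582, had medians of 16% and 52%. CHG had a like place after the interval: 3 overlapping entries from 14626969 to 14627188 went from 34% to 67%, 34% to 70% and 32% to 64% between véraison and maturity. In VIT_02s0033g00260.t01 a CHH region was 7% at first growth and 36% at véraison, and another was 35% at véraison and 0% at maturity.

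Entries of 1 table can overlap each other, so a count of regions is not a count of places. At the locus this held for 102 of 490 CHH regions for véraison against first growth, 7 of 27 CHG regions for maturity against véraison and 7 of 38 for maturity against first growth.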
